A study of Mus musculus with 9 samples.

Results

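The immunity-related GTPases (IRG proteins) are a family of interferon-inducible GTP-binding proteins of mouse cells, and 7 of their genes were followed here in CD8+ T cells: Irgm1, Irgm2, Igtp, Iigp1, Ifi47, Tgtp1 and Tgtp2. They were found by gene symbol among the 53679 gene IDs of the count table, and all 7 passed the low-count filter, as did 15348 IDs in all. The family was chosen by the measured difference between Tc22 and Tc0 cells, in which the fall of Iigp1 was already known. Values of that comparison are therefore given for the 7 members as a description, with no p-value for any member, and the count of members past the threshold stands only beside the share of all genes.

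IRG proteins belong to cell-autonomous defence: interferon gamma, acting through its receptor and the kinases JAK1 and JAK2, induces their genes. The effector members load onto the membranes of vacuoles that hold pathogens such as Toxoplasma and help to break them, while the regulatory members Irgm1, Irgm2 and Igtp (also called Irgm3) sit on the cell's own membranes and keep the effectors inactive there. In mouse T cells Irgm1 is also known to protect interferon-exposed effector cells from death.

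The RNA, ribosome-depleted total RNA, came from C57BL/6 CD8+ T cells that had been activated for 3 days. Each of 3 mice, numbered 715, 725 and 728, gave 1 library of untreated Tc0 cells, 1 of Tc0 cells activated with coenzyme A (CoA) and 1 of untreated Tc22 cells, 9 libraries in all. By the field's usage a Tc0 cell is a CD8+ T cell activated with no polarising cytokine, and a Tc22 cell one that makes interleukin-22. The sources used here do not give the culture conditions of Tc0 and Tc22 cells, the age and sex of the mice, or whether the untreated cells received the vehicle of CoA.

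Totals ran from 21841034 to 36254631 counts per library. Levels are in CPM, counts scaled to a common library size, and values of 3 libraries follow the order of mice 715, 725 and 728. Each sum of the 12 CD8 T cell markers lay between 2610 and 4020 CPM. The Tc0 library of mouse 728, the deepest, differed most from its group. Its level lay between those of the other Tc0 libraries for all 7 members. On leaving it out, 1 member was called in CoA against Tc0, where 3 were with it, and 5 in Tc22 against CoA, as with it.

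The members sit in clusters. On chromosome 11 (GENCODE M21, GRCm38) are Irgm1 (48861968 to 48871683, minus strand), Tgtp1 (48985327 to 48994172, minus), Tgtp2 (49057194 to 49064206, minus) and Ifi47 (49076587 to 49096974, plus). Igtp (58199556 to 58207591, plus) and Irgm2 (58199618 to 58222782, plus) overlap further along that chromosome. Iigp1 lies on chromosome 18 (60376027 to 60392634, plus). The longest open reading frames of Tgtp1 and Tgtp2 differ at 4 of 1248 bases (99.7% identical), so the division of reads between them is uncertain. The other pairs of members were 56.8% to 72.4% identical. Igtp and Irgm2 share 162 bases of annotated exon, 8.01% of the exon length of Igtp and 4.39% of that of Irgm2.

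Promoters of the members are shown because their transcripts varied together across the libraries, which share mice and groups. Any link of promoter sequence to these levels was not tested. RefSeq promoters (GRCm38.p6, 250 bases before to 50 after the start) were at hand for 6 members, and were searched on both strands for TTCNNNGAA, the gamma-activated sequence (GAS) of interferon gamma-induced genes, and GAAANNGAAA, the interferon-stimulated response element (ISRE) to which interferon regulatory factors bind. In the stretches printed, each read 5′ to 3′ on the strand of its gene, the capitals mark these motifs.

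Irgm1: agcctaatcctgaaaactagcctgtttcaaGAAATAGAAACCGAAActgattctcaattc
Irgm2: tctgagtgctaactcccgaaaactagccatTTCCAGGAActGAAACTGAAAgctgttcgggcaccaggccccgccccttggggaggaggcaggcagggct
Igtp: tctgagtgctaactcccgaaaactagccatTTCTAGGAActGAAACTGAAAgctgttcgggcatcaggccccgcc
Tgtp1: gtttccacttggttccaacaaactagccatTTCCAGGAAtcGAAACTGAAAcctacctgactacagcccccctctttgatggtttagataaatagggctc
Tgtp2: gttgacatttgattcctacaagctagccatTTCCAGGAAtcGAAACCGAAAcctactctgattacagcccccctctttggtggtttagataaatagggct

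The stretches lie at chr11:48871421-48871480 (Irgm1, minus strand), chr11:58214872-58214971 (Irgm2, plus), chr11:58199481-58199555 (Igtp, plus), chr11:48992265-48992364 (Tgtp1, minus) and chr11:49064224-49064323 (Tgtp2, minus). TTCNNNGAA was present in 4 of the 6 members' promoters, against 8.3% of all 32851 promoters of the same length, and GAAANNGAAA in 5 of 6, against 3.44%. The stretches of Irgm1, Irgm2 and Tgtp1 lie inside the GENCODE spans given above, so their RefSeq starts are not the GENCODE ones. In Irgm2, Igtp, Tgtp1 and Tgtp2 the GAS began 75, 45, 88 and 81 bases before the RefSeq start, and an ISRE followed 2 bases after its end. Only 5 of the 32851 promoters (0.0152%) held that arrangement, the other being that of the IRG-like gene Gm12185; the arrangement was picked after the members' sequences had been seen. Irgm1 held 2 overlapping ISRE motifs, 30 and 24 bases before the start, and no GAS, and Ifi47 held neither motif in the window. Over their first 75 printed bases Igtp and Irgm2 differ at 2, so the members' promoters are not independent of each other. These matches are a description of letters, not of binding.

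Igtp gave the most abundant transcript of the family per length. On the scale of CPM per kilobase of exon its level was 161 ± 33.4 in Tc0, 122 ± 10.4 in Tc0 with CoA and 78.7 ± 3.27 in Tc22 libraries (mean ± SD, n = 3, as for all groups). It held 44.6% to 64.9% of the family's per-kilobase sum in every library. Ifi47, which encodes the effector also called Irgd, came next at 43.7 ± 18.1, 28.4 ± 4.56 and 22.8 ± 5.16, and Tgtp1 followed at 38.2 ± 22.8, 24.2 ± 6.86 and 13.3 ± 6.34. In Tc0 libraries Tgtp2 (33.3 ± 20.7) and Irgm2 (20.5 ± 6.78) came after these, then Irgm1 (13.6 ± 5.83), and every neighbour from Ifi47 down overlapped the next in range. In Tc22 libraries Irgm2 (10.6 ± 0.731) stood above Tgtp2 (7.89 ± 2.81), with ranges that just failed to overlap. Iigp1 was the lowest in every group, at 8.49 ± 6.72 CPM per kilobase in Tc0, 2.53 ± 0.521 with CoA and 0.165 ± 0.059 in Tc22 libraries.

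**Figure D1:**
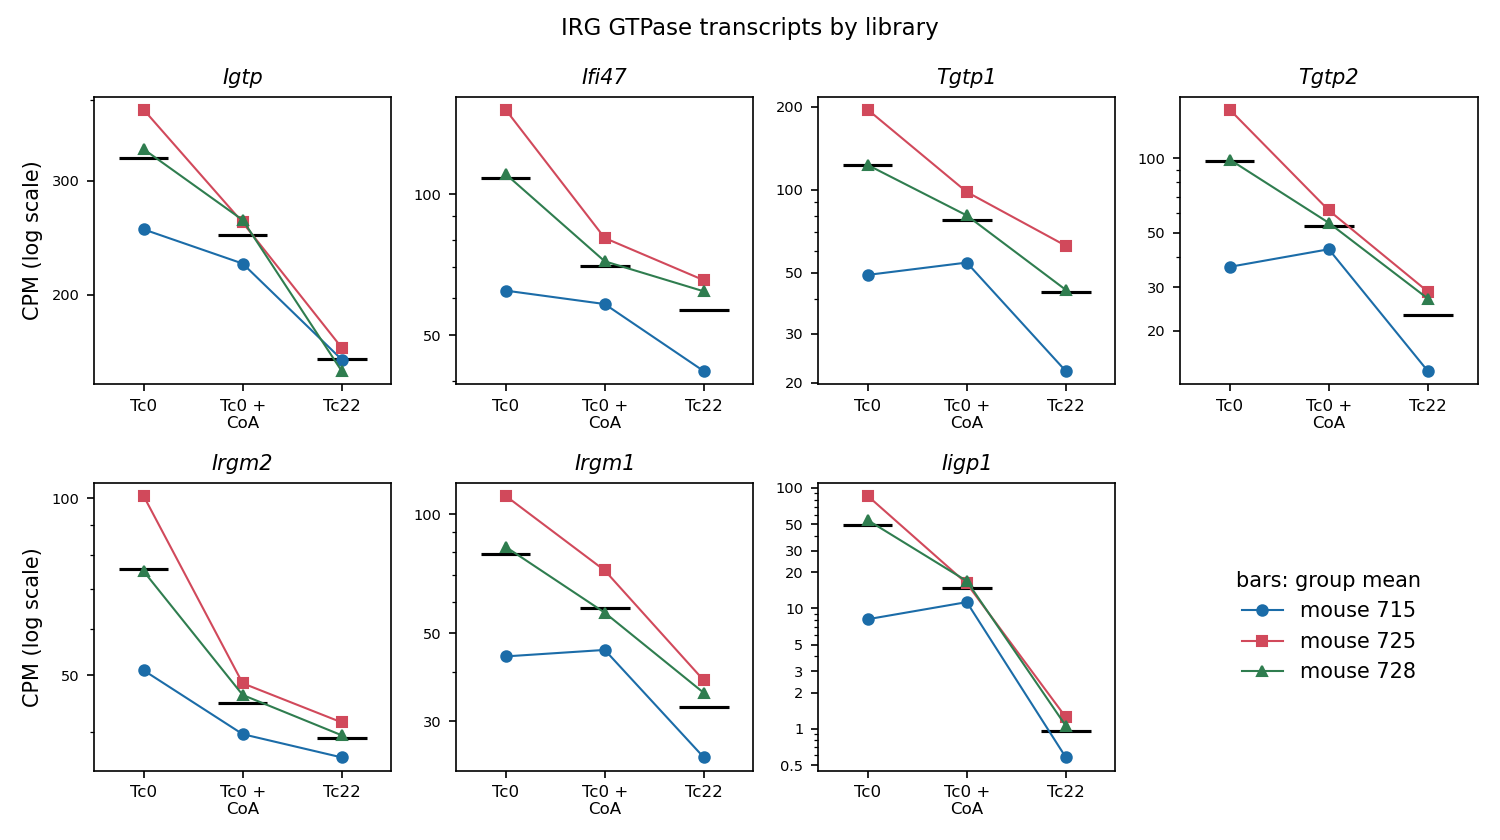
Level of each of the 7 transcripts (CPM on TMM-scaled library sizes, log axis) in every library, with a symbol and a joining line for each mouse and a black bar for the group mean. All lines go down from Tc0 to Tc22, and Iigp1 falls from 8.12 CPM or more to 1.25 CPM or less.

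Against Tc0 cells, all 7 transcripts were lower in Tc22 cells, in each of the 3 mice, as were 21.2% of all genes. Their sum was 857 ± 344 CPM in Tc0 libraries and 354 ± 53.3 CPM in Tc22 libraries. In bulk RNA, fewer cells with the transcripts and less RNA per cell cannot be told apart. By edgeR with adjustment over all genes all 7 lay under an adjusted p of 0.05 on the lower side, as did 1.21% of genes tested (2.48% lay on the higher side and 3.68% on either). Of the 7, 5 had groups that did not overlap, against 5.98%. Dropping the mouse term left 2 members past the threshold. Nothing is read from these counts, since the family was chosen with this comparison known.

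Among the regulatory members, Irgm1 stood at 43.7, 111 and 82.7 CPM in Tc0 and at 24.3, 38.0 and 35.4 CPM in Tc22 libraries. Every Tc22 library lay under every Tc0 library (log2 fold change -1.22, SE 0.15). Irgm2 had 51.0, 101 and 75.2 CPM in Tc0 and 36.2, 41.6 and 39.5 CPM in Tc22 libraries, again without overlap (-0.91, SE 0.15). Igtp had 252, 386 and 336 CPM in Tc0 and 159, 166 and 153 CPM in Tc22 libraries. The 3 Tc22 values of Igtp lay close together and under all Tc0 values (-1.01, SE 0.12). The log2 fold changes of the 3 regulatory members thus ran from -1.22 to -0.91.

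Those of the 4 effector members ran from -5.43 to -0.88, a range that takes in that of the regulatory members. Its low end was set by Iigp1 alone, the next lowest being Tgtp2 at -1.96. No difference between effector and regulatory members was tested. Iigp1, the gene of Irga6, an effector that coats the Toxoplasma vacuole, stood at 8.12, 86.0 and 54.1 CPM in Tc0 libraries. In Tc22 libraries it was at 0.578, 1.25 and 1.06 CPM, from 17, 42 and 33 counts. The log2 fold change was -5.43 (SE 0.53), or 43.1-fold lower, rank 6 from the lowest of all 15348 genes tested. Even the low Tc0 library of mouse 715 lay far above all Tc22 libraries, and without the Tc0 library of mouse 728 the log2 fold change was -5.24. Tgtp2 stood at 36.4, 158 and 99.0 CPM in Tc0 and at 13.7, 28.8 and 27.0 CPM in Tc22 libraries, without overlap (-1.96, SE 0.25).

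Tgtp1 and Tgtp2 both encode the effector called Irgb6 or T cell-specific GTPase. Tgtp1 had 49.1, 195 and 123 CPM in Tc0 and 22.0, 62.6 and 43.3 CPM in Tc22 libraries (-1.45, SE 0.18), and its groups overlapped: Tc22 of mouse 725 lay above Tc0 of mouse 715. How reads were divided between the copies is not known, and their sum does not depend on it. The sum was 85.5, 353 and 222 CPM in Tc0 and 35.7, 91.4 and 70.3 CPM in Tc22 libraries (-1.65, SE 0.20). The ratio of Tgtp1 to Tgtp2 was 1.24 to 1.35 in Tc0 and 1.6 to 2.17 in Tc22 libraries. Ifi47 stood at 62.3, 152 and 111 CPM in Tc0 and at 41.9, 65.5 and 62.0 CPM in Tc22 libraries. Its groups overlapped, and it had the smallest difference of the family (-0.88, SE 0.15).

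Mice differed in the same order for most members. In Tc0 libraries mouse 715 was lowest and mouse 725 highest for 7 of 7 members, where mouse 715 was lowest for 32.9% and mouse 725 highest for 26.7% of all genes tested. With CoA mouse 715 was lowest for 7 of 7 (30.9% of all genes), and in Tc22 libraries for 6 of 7 (39.8%), the exception being Igtp. The highest Tc0 value was 10.6 times the lowest for Iigp1, 4.34 times for Tgtp2, 3.97 times for Tgtp1 and 1.53 times for Igtp. The members' log2 levels correlated pair by pair with r from 0.833 to 0.991 over the 9 libraries (median 0.932 of 21 pairs), a description of libraries that share mice and groups.

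**Figure D2:**
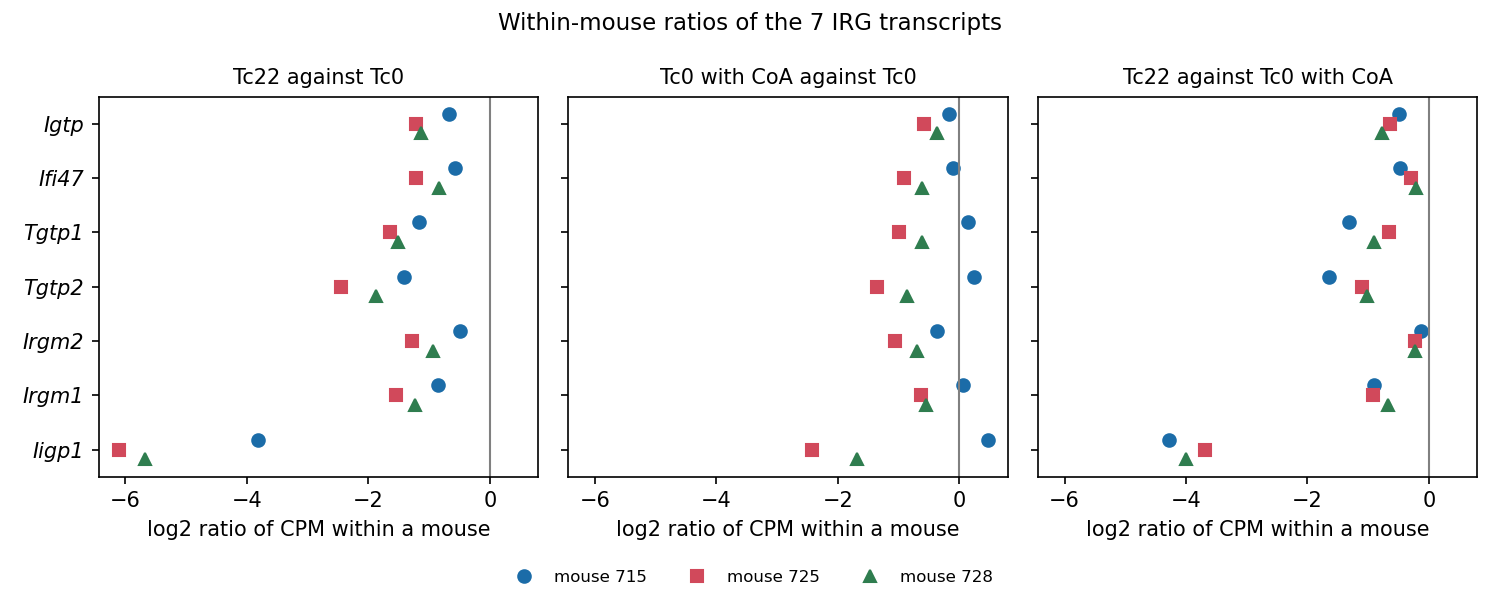
Log2 ratio of CPM within each mouse for the 7 transcripts (rows) in the 3 comparisons (panels), with a symbol for each mouse. Ratios of Tc22 to Tc0 are all below 0, while with CoA those of mouse 715 lie on both sides of 0.

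CoA during activation was compared with its absence in Tc0 cells to ask what the cofactor does to transcripts. This comparison uses the same Tc0 libraries as the one before, by which the family was chosen. The members' counts and p-values here are thus not free of that choice. Irgm2, Ifi47 and Igtp fell by edgeR's adjusted p, 3 of 7 members, where 12.0% of all genes tested fell, 12.5% rose and 24.5% changed in either direction. The median log2 fold change of the 7 was -0.55, against -0.01 over all genes. Summed, the transcripts had 566 ± 82.2 CPM with CoA.

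Irgm2 went to 39.7, 48.5 and 46.3 CPM with CoA, and every value lay under every Tc0 value (-0.72, SE 0.15, edgeR adjusted p = 0.00925). It was the only member without overlap, against 13.6% of all genes on the lower side. Ifi47 had 58.3, 80.6 and 71.9 CPM with CoA (-0.55, SE 0.15, adjusted p = 0.0233 by edgeR) and Igtp 224, 259 and 261 CPM (-0.38, SE 0.12, adjusted p = 0.0483 by edgeR). Both overlapped the Tc0 range, through the low Tc0 library of mouse 715. The Igtp call held in 5 of 16 alternatives. It was lost on leaving out Tc0 of mouse 725 or 728, CoA of any mouse or Tc22 of any mouse (adjusted p up to 0.254), and held on leaving out Tc0 of mouse 715. These 3 of 7 members were lower with CoA in each of the 3 mice, as were 26.8% of all genes.

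The other members did not pass by edgeR. Iigp1 stood at 11.3, 16.1 and 16.9 CPM with CoA (-1.32, SE 0.43, adjusted p = 0.0512), close in all 3 libraries where the Tc0 values had been far apart. Irgm1 had 45.4, 72.1 and 56.4 CPM (-0.38, SE 0.15, adjusted p = 0.0819 by edgeR). Tgtp1 had 54.4, 98.1 and 80.7 CPM (-0.49, SE 0.18, adjusted p = 0.0718) and Tgtp2 42.9, 61.6 and 54.8 CPM (-0.68, SE 0.24, adjusted p = 0.0667), by edgeR. In these 4 genes mouse 715 was higher with CoA than without, and the other mice were lower.

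Mouse 715 set the CoA result apart. Its within-mouse log2 ratios ran from -0.36 to 0.47 over the members, with 4 higher and 3 lower. In mouse 725 all 7 were lower (-2.42 to -0.58, median -0.99), as in mouse 728 (-1.68 to -0.36, median -0.62). The count of members called was not 3 but 0 on leaving out Tc0 or CoA of mouse 725, and 1 on leaving out Tc0 or CoA of mouse 728. It was 7 on leaving out Tc0 of mouse 715 and 6 on leaving out CoA of that mouse. Without the mouse term it was 0, by DESeq2 5 and without the low-count filter 7.

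Between Tc22 cells and Tc0 cells with CoA, which share the Tc22 libraries with the first comparison, all 7 members were lower in Tc22 in all 3 mice, as were 32.5% of all genes. By edgeR 5 of 7 fell, against 16.0% of all genes (16.0% rose and 32.0% changed in either direction), and the count was 5 whichever single library was left out. Without the mouse term 2 were called. The groups of 4 members did not overlap, against 21.7% of all genes on the lower side.

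Because the family was chosen by a difference measured in these same Tc22 libraries, the members' counts and p-values against CoA are not free of that choice. They are given as a description. Iigp1 was 17.3-fold lower in Tc22 than in Tc0 cells with CoA (log2 fold change -4.11, SE 0.52, edgeR adjusted p = 0.000916). Its Tc22 values, at 1.25 CPM or less, were all far under the CoA values, at 11.3 CPM or more. Tgtp2 fell (-1.28, SE 0.24, adjusted p = 0.00452 by edgeR), as did Tgtp1 (-0.97, SE 0.18, adjusted p = 0.00386) and the sum of both (-1.09, SE 0.20, adjusted p = 0.00386). Of the regulatory members, Irgm1 fell (-0.83, SE 0.15, adjusted p = 0.00328 by edgeR) and Igtp fell (-0.63, SE 0.12, adjusted p = 0.00477). Irgm2 (-0.19, SE 0.15, adjusted p = 0.35) and Ifi47 (-0.33, SE 0.15, adjusted p = 0.108) did not pass by edgeR. Irgm2, Ifi47 and Igtp had fallen with CoA, whereas Irgm1, Tgtp1, Tgtp2 and Iigp1 had not passed there. Igtp thus passed in both. These sets differ by the threshold and not by the size of the fall with CoA. Irgm1 and Igtp were both at -0.38 there, and Iigp1 had the largest fall (-1.32). Differences between members were not tested.

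Other IRG-like genes were read from a list of 10, of which 7 were measured. In Tc22 against Tc0, 4 of 7 fell and 0 rose (median -0.80), against 1.21% and 2.48% of all genes. The falls were 2 if Tc0 of mouse 725, or Tc22 of mouse 715 or 725, was left out. Gm4951, which like Iigp1 lies on chromosome 18, had 1.35, 6.11 and 5.15 CPM in Tc0 and 0.102, 0.119 and 0.224 CPM in Tc22 libraries, the latter from 3, 4 and 7 counts (-4.69, SE 0.50, edgeR adjusted p = 0.00155). With CoA it stood at 1.44, 1.45 and 1.42 CPM. F830016B08Rik, a further IRG-like gene of that chromosome, had 6, 24 and 26 counts in Tc0, 10, 6 and 4 with CoA and 0, 1 and 0 in Tc22 libraries.

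Of the chromosome 11 genes in that list, Gm12250, known as Irgb10, fell from 51.5 ± 10.3 to 29.5 ± 4.84 CPM in Tc22 cells (-0.80, SE 0.10, edgeR adjusted p = 0.00309). With CoA 4 of the 7 fell (median -1.03), against 12.0% of all genes. That count was 0 without the CoA library of mouse 725 or 728 or the Tc0 library of mouse 725, and 2 without the Tc0 library of mouse 728. 9930111J21Rik2 fell with CoA, from 102 ± 44.0 to 39.9 ± 8.52 CPM (-1.23, SE 0.31, edgeR adjusted p = 0.0195). In Tc22 against CoA, where 16.0% of all genes fell, 3 of 7 fell, among them Gm4951 (-3.35, SE 0.53, adjusted p = 0.00219 by edgeR). The count was 1 without the Tc22 library of mouse 725, and 3 higher and 3 lower without the CoA library of mouse 715.

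Genes that carry the interferon gamma signal moved in several ways. Ifng, the cytokine gene itself, had 8.59, 1.87 and 1.51 CPM in Tc0, 37.5, 43.4 and 22.9 CPM with CoA and 2.79, 2.64 and 1.85 CPM in Tc22 libraries. It rose with CoA (3.34, SE 0.41, edgeR adjusted p = 0.00181), where 0 of 7 IRG members and 12.5% of all genes rose. Between Tc22 and Tc0 it did not pass (-0.50, adjusted p = 0.511 by edgeR), and mouse 715, whose Tc0 library had the most Ifng, had the least of all 7 IRG transcripts there. Over the 9 libraries, which share mice and groups, the members' r with Ifng ran from -0.35 to 0.18. Only Ifng RNA was measured, not the protein in the medium. Whether Ifng sets the IRG levels was not tested.

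Ifngr1, the ligand-binding chain of the interferon gamma receptor, fell with CoA from 250 ± 61.4 to 115 ± 40.6 CPM (-1.11, SE 0.22, edgeR adjusted p = 0.00799). It was at 239 ± 67.9 CPM in Tc22 libraries (-0.08 against Tc0, adjusted p = 0.857 by edgeR). Ifngr2, its signalling chain, rose in Tc22 against Tc0 (0.83, SE 0.15, adjusted p = 0.0161 by edgeR), a call lost on leaving out Tc0 of mouse 715 or 725, or Tc22 of mouse 725 or 728 (adjusted p up to 0.114). Jak1 (-0.42, adjusted p = 0.0493) and Jak2 (-0.39, adjusted p = 0.0477), kinases of the receptor, lay just under the edgeR threshold with CoA. Both calls were lost on leaving out CoA of mouse 725 or 728, Tc0 of mouse 725 or Tc22 of mouse 715 or 725, that of Jak1 also on leaving out Tc0 or Tc22 of mouse 728 and that of Jak2 on leaving out Tc0 of mouse 715 (adjusted p up to 0.268 and 0.25). In Tc22 against Tc0 they were at -0.05 (adjusted p = 0.856) and 0.04 (adjusted p = 0.887).

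Irf1, a transcription factor that drives interferon-responsive genes, passed neither in Tc22 (-0.35, adjusted p = 0.34) nor with CoA (-0.49, adjusted p = 0.108) by edgeR. Leaving out Tc0 of mouse 715 brought it past the threshold in both, at -0.66 (adjusted p = 0.0226) and -0.81 (adjusted p = 0.00465), and with CoA so did leaving out CoA of mouse 715 or the low-count filter. Over single libraries left out, its adjusted p ran up to 0.742 and 0.382. Socs1, a feedback inhibitor, did not pass in Tc22 (0.18, adjusted p = 0.586) or with CoA (0.52, adjusted p = 0.0611) by edgeR. With CoA it did pass by DESeq2 (adjusted p = 0.0274), with low counts left in, and on leaving out CoA of mouse 715, Tc0 of mouse 728 or Tc22 of mouse 728 (adjusted p from 0.0291 to 0.297 over single libraries left out).

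Irf8, an interferon-induced transcription factor, fell in Tc22 cells from 52.3, 79.7 and 104 CPM to 23.6, 26.1 and 25.9 CPM (-1.59, SE 0.15, edgeR adjusted p = 0.000801). With CoA it had 71.0, 82.7 and 103 CPM and did not pass (0.15, adjusted p = 0.483 by edgeR). Nlrc5, the activator of MHC class I genes, fell in Tc22 cells (-1.21, SE 0.15, adjusted p = 0.00302 by edgeR) and with CoA (-0.69, SE 0.15, adjusted p = 0.0111). The latter call was lost without the CoA library of mouse 725 or 728 or the Tc0 library of mouse 725 (adjusted p up to 0.0637). Of the 18 receptor and JAK-STAT genes, all measured, 2 rose and 3 fell in Tc22 against Tc0 (median -0.04), against 2.48% and 1.21% of all genes. Leaving out Tc0 of mouse 725, or Tc22 of mouse 725 or 728, made the counts 0 and 2. With CoA 2 rose and 8 fell (median -0.40), against 12.5% and 12.0% of all genes. Leaving out CoA of mouse 725 made the counts 2 and 3, CoA of mouse 728 2 and 2, and Tc0 of mouse 725 1 and 1.

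**Figure D3:**
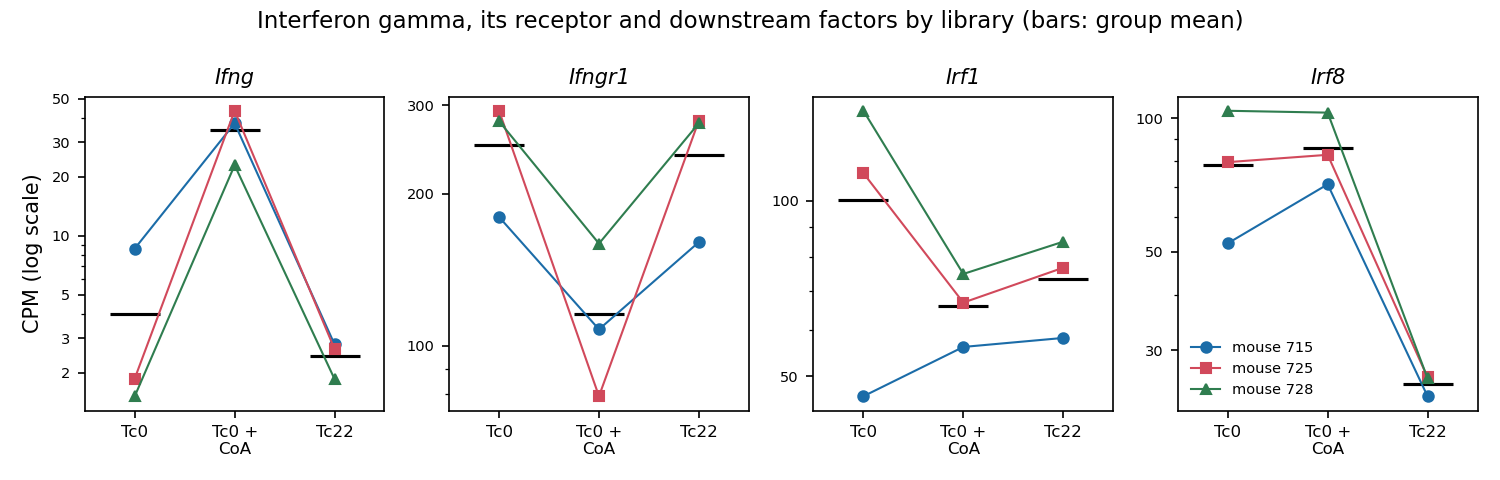
Level of Ifng, its receptor chain Ifngr1 and the factors Irf1 and Irf8 (CPM on TMM-scaled library sizes, log axis) in every library, with a symbol and line for each mouse and a black bar for the group mean. Ifng peaks with CoA, at 22.9 to 43.4 CPM, where Ifngr1 is lowest, and Irf8 is low in Tc22 libraries alone.

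Guanylate-binding proteins are large GTPases that interferon gamma induces alongside the IRG family. In Tc22 against Tc0, 3 of 10 measured genes fell and 0 rose, against 1.21% and 2.48% of all genes. Gbp10 went from 26.4 ± 18.4 to 1.32 ± 0.391 CPM (-4.18, SE 0.64, edgeR adjusted p = 0.00703) and Gbp6 from 160 ± 57.6 to 44.4 ± 11.9 CPM (-1.85, SE 0.28, adjusted p = 0.0073). The count was 0 without the Tc22 library of mouse 725 and 5 without the Tc0 library of mouse 715. With CoA 6 of 10 fell and 0 rose (2 and 0 without the Tc0 or CoA library of mouse 725), against 12.0% and 12.5% of all genes. Those that fell were led by Gbp3 (-1.35, SE 0.24, adjusted p = 0.0059 by edgeR) and Gbp7 (-1.33, SE 0.25, adjusted p = 0.00689). In Tc22 against CoA 16.0% of all genes rose, 16.0% fell and 0 IRG members rose. Of the guanylate-binding genes 3 rose and 1 fell, or 2 and 0 without the Tc22 library of mouse 725. Gbp3 was among those that rose (1.13, SE 0.24, adjusted p = 0.00707 by edgeR).

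Other lists of interferon-responsive genes were read against the 3.68% of all genes called in Tc22 against Tc0. By edgeR 0 of 15 antigen presentation genes were called there (2 at an unadjusted p under 0.05, 1 by DESeq2), and 3 rose and 1 fell without the Tc0 library of mouse 728. Of 18 measured type I interferon-stimulated genes 0 were called (6 at an unadjusted p under 0.05, 1 by DESeq2). That count was 1 without the Tc0 library of mouse 715 or 728 and 2 without the CoA library of mouse 725. Of 18 genes of ATG8 conjugation and ubiquitin adaptors, which in mouse cells help IRG proteins to find their vacuoles, only Optn rose (1.43, SE 0.23, edgeR adjusted p = 0.00906) and 0 fell. Leaving out Tc0 or Tc22 of mouse 725 ended its call (adjusted p up to 0.0611), and leaving out Tc0 of mouse 728 added 2 falls.

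With CoA, 12.5% of all genes rose and 12.0% fell, and the counts of the lists stand beside those shares. Of 15 antigen presentation genes 1 rose and 2 fell. These calls ranged from 0 in all, without the Tc0 library of mouse 725, to 7, without the CoA library of mouse 715. Of the type I list 2 rose and 3 fell, with 0 calls on leaving out Tc0 of mouse 725 and 10 on leaving out Tc0 or CoA of mouse 715. Of the ATG8 list 7 fell and 0 rose, or 1 without the CoA library of mouse 728 and 2 without the Tc0 or the CoA library of mouse 725. Atg12, part of the complex that attaches ATG8 proteins to membranes, fell from 70.1 ± 5.99 to 34.1 ± 4.66 CPM (-1.05, SE 0.13, edgeR adjusted p = 0.00181).

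In Tc22 cells against Tc0 cells with CoA, 16.0% of all genes rose and 16.0% fell, and the counts of the lists stand beside those shares. Of the receptor and JAK-STAT genes 6 of 18 rose and 4 fell, or 3 and 2 on leaving out CoA of mouse 728 and 4 and 2 on leaving out Tc22 of mouse 725. Those that fell included Ifng (-3.84, SE 0.42, edgeR adjusted p = 0.000461) and Irf8 (-1.74, SE 0.15, adjusted p = 0.000203), while Ifngr1 rose (1.03, SE 0.22, adjusted p = 0.00675). Of the type I list 5 of 18 rose and 3 fell, or 2 and 2 on leaving out CoA of mouse 725 or 728 and 1 and 2 on leaving out Tc22 of mouse 725. Dhx58, a regulator of viral RNA sensing, was at 4.09 ± 3.02 CPM with CoA and at 27.2 ± 11.2 CPM in Tc22 libraries (2.81, SE 0.38, edgeR adjusted p = 0.00113).

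Of the ATG8 list 8 of 18 rose and 1 fell in that comparison. Leaving out CoA of mouse 725 or 728 or Tc22 of mouse 725 made these 4 and 0, and leaving out Tc22 of mouse 715 made them 5 and 0. Atg12 rose to 73.8 ± 3.43 CPM (1.12, SE 0.13, edgeR adjusted p = 0.00057). Of the antigen presentation genes 2 of 15 rose and 1 fell, with 0 calls on leaving out Tc22 of mouse 725, 1 on leaving out CoA of mouse 725 or 728 or Tc0 of mouse 725, and 5 on leaving out CoA of mouse 715.

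**Figure D4:**
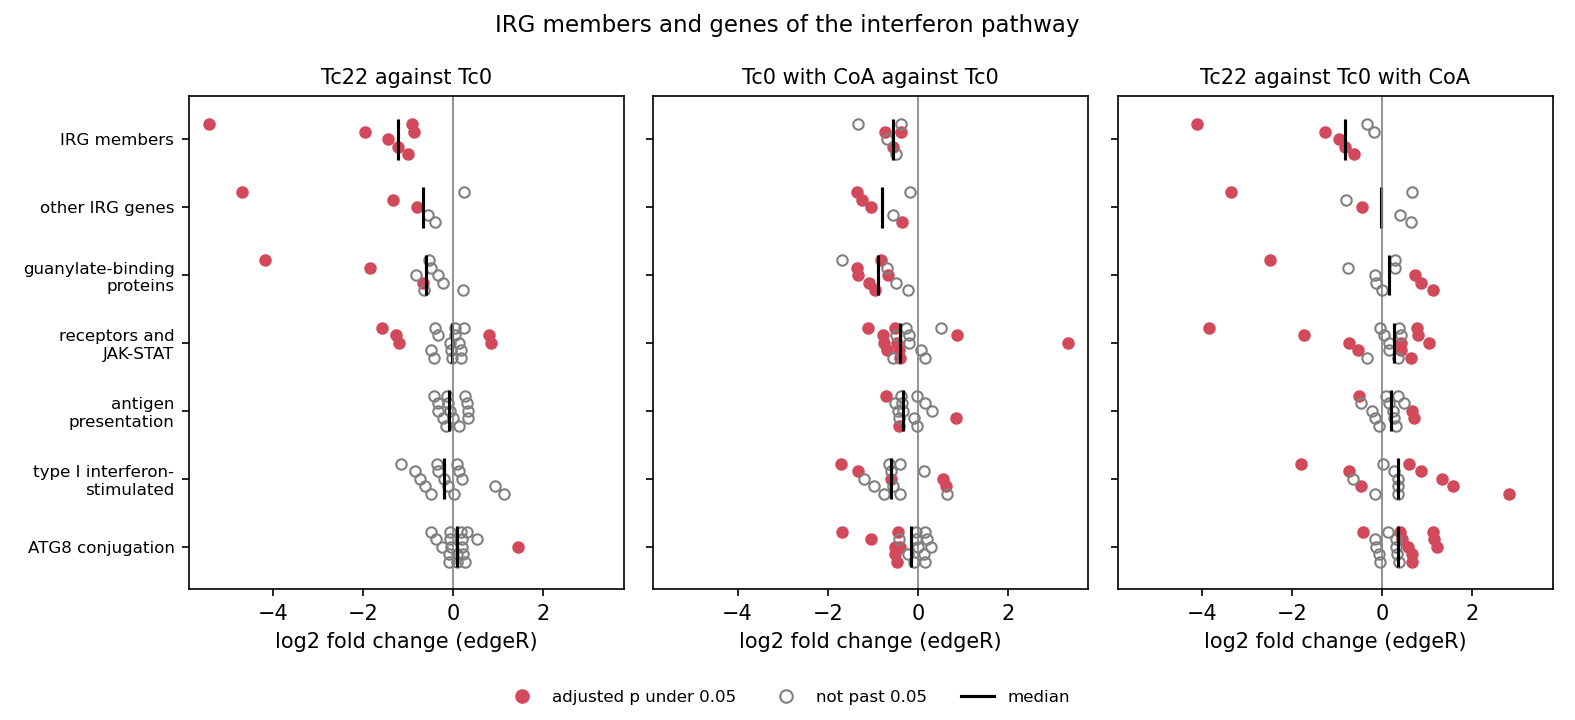
Log2 fold change by edgeR of the 7 members and of genes in 6 lists of the pathway (rows) in the 3 comparisons (panels), for genes with a mean of 1 CPM or more in some group. Filled points have an adjusted p under 0.05, open points do not, and black bars are medians. In Tc22 against Tc0 the medians of the members and of the lists range from -1.22 for the members to values near 0.

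The 5 genes whose log2 levels followed the members' mean most closely over the 9 libraries, among 9227 genes with at least 5 CPM, were Hipk1 (r = 0.942), Cxcr3 (0.941), Mettl8 (0.937), Zfp324 (0.934) and Cblb (0.934). The libraries share mice and groups, so these values describe likeness only. Cxcr3, the receptor of interferon-induced chemokines, stood at 18.5 ± 8.70 CPM in Tc0, 12.8 ± 2.33 with CoA and 6.89 ± 2.83 CPM in Tc22 libraries. Cblb, a ubiquitin ligase that limits T cell activation, had 151 ± 31.0, 132 ± 11.1 and 85.1 ± 5.27 CPM.

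IRG genes are also active in macrophages, whose 9 listed markers summed to 4.50 to 6.61 CPM in Tc0, 5.05 to 14.3 with CoA and 6.22 to 7.13 CPM in Tc22 libraries. Most of that sum was Cd68, at 2.01 to 3.50, 2.58 to 3.42 and 4.27 to 5.44 CPM in those groups, and Lyz2, at 1.01 to 2.33, 1.52 to 7.63 and 0.646 to 1.51 CPM. C1qa and C1qb had 0 counts in Tc22 libraries, 1 at most in Tc0 libraries and up to 2 and 6 with CoA. The 7 dendritic cell markers summed to 6.48 to 10.7, 19.2 to 26.5 and 18.9 to 24.7 CPM in the same order. Most of it was Batf3, at 2.75 to 6.17, 10.9 to 20.7 and 14.6 to 18.9 CPM, and Zbtb46, at 2.15 to 3.97, 4.66 to 7.56 and 2.82 to 4.39 CPM. Itgax, Flt3, Xcr1 and Clec9a were each under 1 CPM in every library, and Siglech was at 0. The 7 natural killer cell markers summed to 129 to 181, 207 to 248 and 87.1 to 107 CPM, nearly all of it Nkg7 and Eomes, which CD8 T cells also express. Ncr1, Klrb1c, Klra4 and Klra8 were under 1 CPM in every library. Klra7 stood at 1.35, 0.373 and 0.303 CPM in Tc0, 0.114, 0.145 and 0.178 CPM with CoA and 2.31, 2.07 and 1.95 CPM in Tc22 libraries. The 6 gamma delta T cell markers summed to 136 to 187, 102 to 129 and 131 to 162 CPM, mostly Trdc. Markers of CD4 and regulatory T cells (7) summed to 918 to 1130, 788 to 908 and 930 to 1110 CPM, mostly Il2ra, Ctla4 and Ikzf2. Cd4 was at 1.375 CPM or less. B cell markers summed to 8.53 to 12 CPM, and granulocyte and mast cell markers to 3.65 CPM or less. The part of such cells in the IRG differences was not tested.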

How the data were processed

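CD8+ T cell RNA (200 ng per sample) was depleted of ribosomal RNA and made into stranded total RNA libraries, per the labels' protocols. The authors deposited whole-number gene counts for 9 libraries. RSEM 1.3.0 and STAR 2.5.2 appear in the submitters' processing notes, as do the builds mm10 and GRCm38. The sources used here give neither the annotation nor the strand setting of the counting, so overlapping genes may share reads, and the counts may have been rounded.

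After filterByExpr by group and TMM scaling, the deposited counts of all 9 libraries were fitted in R 4.3.3 with the quasi-likelihood F test of edgeR 4.0.16. The model had terms for group and mouse and 4 residual degrees of freedom. Benjamini-Hochberg adjustment ran over 15348 genes, with a threshold of 0.05. The standard error was approximated by dividing the size of a log2 fold change by the root of its F. Levels in CPM use TMM-scaled library sizes, and levels per kilobase the GENCODE M21 exon length. DESeq2 1.42.0, another scaling, no filter, no mouse term and leaving out each library were alternatives.

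The design text says that every mouse gave all populations. Deviations from the group means correlated between libraries of the same mouse with r from 0.0699 to 0.617 (9 pairs, mean 0.36). Between libraries of different mice r ran from -0.527 to 0.228 (18 pairs, mean -0.18), so the ranges overlapped. Deviations within a group cancel out, so a positive mean within mice pushes the mean between mice below 0. The latter is therefore no separate evidence of pairing. The p-values rest on 3 mice. The members and the lists were chosen with earlier results of these data known. Genes named are all members, a fixed set of pathway genes (1 of which is not reported here), up to 4 called genes with the smallest p per list and comparison (of which the text gives a part), and the 5 most alike in level. The fits were also run on counts simulated with the same spread for every gene. Real genes need not share that spread, so the run does not vouch for the calls given here.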

Additional observations from a re-analysis of the deposited data

How the results depend on the processing

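In 112 combinations of a member and an alternative per comparison, each log2 fold change kept its direction. The call was the same in 104 of them for Tc22 against Tc0, in 78 for CoA against Tc0 and in 108 for Tc22 against CoA. Without the replicate block by mouse the members called were 2 in Tc22 against Tc0, 0 in CoA against Tc0 and 2 in Tc22 against CoA. With CoA 5 members were called by DESeq2 and 7 without the low-count filter. Leaving out 1 library at a time gave 5 to 7 members in Tc22 against Tc0, 0 to 7 with CoA and 5 to 5 in Tc22 against CoA. In Tc22 against Tc0 the lost members were Irgm2 (without the Tc22 library of mouse 725) and Ifi47 (without the Tc0 or Tc22 library of mouse 725). The Igtp call with CoA held in 5 of 16 alternatives; besides those that leave out a library, it was lost without the block, with library size alone as the scaling and with the compared groups alone. Without the block the calls of Gm12250 (adjusted p = 0.121) and Ifngr2 (0.247) in Tc22 against Tc0 were lost as well, by edgeR. The causes were not tested. Scaling moved the median of all genes by under 0.02 on the log2 scale. Iigp1 rests on 17 to 42 counts in Tc22 libraries, so its level there is imprecise.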
